A study of Mus musculus with 12 samples.

Results

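The 50 genes described here encode the proteasome, its activators and inhibitor, and the chaperones that assemble it. They were taken from the 24079 genes of the count table by symbol, as every Psma, Psmb, Psmc, Psmd, Psme, Psmf or Psmg gene followed by a digit whose reads reached 15 in total, and no gene with such a symbol fell below that minimum. Among the 50, Psmc3ip matched by its symbol alone, since its product is a partner of the meiotic recombination machinery and not a proteasome subunit.

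RNA bound to tagged ribosomes was sequenced from hippocampi of 6 wild-type (WT) and 6 Fmr1-/y pools, the latter lacking FMRP, the RNA-binding protein that is lost in Fragile X syndrome, so that mRNAs of CA1 pyramidal neurons could be compared between genotypes. Both groups were adult C57BL/6J mice, 2 to 6 months old, that carried Wfs1-CreERT2 and RiboTag, received tamoxifen for 3 days and were used 1 week later. The Fmr1-/y group carried in addition the Fmr1 knockout, and each library came from a pool of 4 to 6 animals. Cre was driven by the Wfs1 promoter, so the HA tag on the ribosomal protein Rpl22 marked Wfs1-expressing neurons, but the pulldown was made from the whole hippocampus.

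The proteasome is the protease that degrades proteins tagged with ubiquitin. Its 20S core is a barrel of alpha rings, which form the gate, and beta rings, which hold the catalytic sites, and the 19S regulatory particle on its ends recognizes, unfolds and feeds in the substrate. In neurons this degradation is known to take part in synaptic plasticity, and the protein subunits are made in near-equal amounts so that complete particles can assemble.

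The targeted gene followed the labels, as Fmr1 had 1971 to 2608 reads in the WT libraries, against 1 read in Fmr1-/y library 2 and 0 in the other 5. Depth was 39400980 to 55745464 reads in WT and 43106629 to 65565479 reads in Fmr1-/y libraries, and the 50 genes took 0.443% to 0.540% of the reads of a library. Of the 8 CA1 pyramidal markers, which summed to 8689 to 10777 CPM (TMM-normalized counts, scaled to a common library size) in WT and 8354 to 9970 CPM in Fmr1-/y, all 8 had fold changes below 0, 3 of them at an unadjusted p under 0.05. Markers of other cells were also present: the 4 choroid plexus genes summed to 6202 to 11618 CPM in WT and 8129 to 17082 CPM in Fmr1-/y, the 5 astrocyte genes to 698 to 846 CPM and 762 to 1188 CPM, and the 5 endothelial genes to 31.4 to 45.3 CPM and 36.9 to 55.8 CPM. All 14 genes of these lists had fold changes above 0, with 2, 2 and 3 at an unadjusted p under 0.05. The 6 microglial genes summed to 79.0 to 94.2 CPM in WT and 81.7 to 106 CPM in Fmr1-/y, the 5 oligodendrocyte genes to 1056 to 1589 CPM and 940 to 1459 CPM, the 6 GABAergic genes to 102 to 218 CPM and 111 to 154 CPM, the 4 dentate granule genes to 79.5 to 108 CPM and 69.6 to 90.8 CPM, and the 5 genes of CA2 and CA3 to 718 to 784 CPM and 646 to 742 CPM. No gene of any marker list passed the adjusted threshold or was at 0. The part of these cells in the values below was not tested.

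Sequence upstream of the start site is shown for Psmb5 and Psmd9, because stress-responsive transcription of proteasome genes is known to run through the factors NRF1 and NRF2, whose binding core TGACNNNGC lies in these stretches. The capitals mark that core. Each stretch is 120 bases of the RefSeq GRCm38.p6 reference, 5′ to 3′ on the strand of the gene, and overlaps no GENCODE M21 exon and no RefSeq gene.
Psmb5, chr14:54618023-54618142, minus strand: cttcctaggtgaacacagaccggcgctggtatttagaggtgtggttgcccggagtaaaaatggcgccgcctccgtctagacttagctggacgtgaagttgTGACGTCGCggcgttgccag
Psmd9, chr5:123228070-123228189, plus strand: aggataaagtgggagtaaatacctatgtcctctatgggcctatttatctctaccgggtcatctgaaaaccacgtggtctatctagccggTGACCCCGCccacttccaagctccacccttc
The core began 47 bases before the start site in Psmb5 and 31 bases before it in Psmd9. RefSeq windows of 250 bases before to 50 bases after the start were at hand for 42 of the 50 genes, and 6 of them (14.3%) held TGACNNNGC on either strand, against 16.4% of the 13825 tested genes with a window. The other holders were Psmb6, Psme4, Psmd12 and Psmc6. The shorter core TGANNNNGC, which every TGACNNNGC match also contains, was in 24 of the 42 genes (57.1%, against 47.4% of tested genes). A degenerate motif that overlaps these cores, RTGASNNNGC (R for A or G, S for C or G), was in 14 (33.3%, against 17.7%). It also takes TGAG in place of TGAC, so its count is not one of TGACNNNGC. The core of the interferon-stimulated response element lay in the windows of Psmd4, Psmd9, Psmb3, Psmg4 and Psme1 (11.9%, against 3.74%), and a CCAAT box in 15 genes (35.7%, against 42.1%). These are matches of letters only.

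In the pulldown the levels of the proteasome mRNAs differed between roles. Levels between genes are given as CPM per kilobase of the longest annotated coding transcript, as the WT mean with its SD over 6 libraries. The 31 constitutive subunits of the 26S particle had a median of 93.0 CPM per kb. The 7 alpha ring genes, which form the gate of the barrel, spanned 41.4 ± 4.48 (Psma2) to 120 ± 11.5 (Psma6) with a median of 77.3. The 7 beta ring genes spanned 65.0 ± 6.65 (Psmb1) to 169 ± 16.4 (Psmb7) with a median of 130. Among the 6 ATPases that unfold the substrate, Psmc6 was at 36.1 ± 3.33 and Psmc5 at 174 ± 16.3, with a median of 121 over the ring. The 11 non-ATPase subunits, which bind and deubiquitinate the substrate, spanned 22.9 ± 1.20 (Psmd11) to 133 ± 7.52 (Psmd2), with a median of 58.7. Within the beta ring, Psmb5 (146 ± 17.7), Psmb6 (155 ± 16.4) and Psmb7 (169 ± 16.4) lay less than 2 SD apart. The subunits moved together over the libraries, as described further on, so these SDs do not measure how firm the order is. With the median transcript length of each gene they were at 173, 155 and 169 CPM per kb, in another order. The length chosen weighs on these levels: with the median instead of the longest transcript of each gene the highest of the 31 was Psmd2 at 596 CPM per kb, while the median of the 31 moved to 98.4. Psmd2 had a median length of 659 bases, against 2961 for its longest transcript. With median transcript lengths the median of the non-ATPase subunits was 91.1, against 98.4 for the alpha ring, 130 for the beta ring and 121 for the ATPases, so the gap between the non-ATPase subunits and the alpha ring was narrower.

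On the same per-length scale the activators, the inhibitor and the chaperones lay below the median of the constitutive particle, except that with median transcript lengths Psme3 was at 145 CPM per kb, above it. Psme1 and Psme2, the subunits of an interferon-inducible activator ring, were at 36.1 ± 3.81 and 35.6 ± 4.16 CPM per kb, and Psme3, the nuclear activator, was at 38.1 ± 2.18. Psme4, the large activator known for its role in sperm and in DNA repair, was at 4.72 ± 0.445, and the inhibitor Psmf1 at 6.61 ± 0.452. With median transcript lengths Psme4 was at 46.6 CPM per kb, above Psme2 at 43.1, so the order of the activators depends on the length used. The median and longest transcripts of Psme4 were 657 and 6491 bases, and those of Psme3 were 698 and 2664 bases. The 4 chaperones Psmg1 to Psmg4, which pair the alpha subunits of a nascent core, lay between 8.504 ± 1.31 (Psmg4) and 12.6 ± 1.39 (Psmg3). Of the chaperones of the regulatory particle, Psmd5 was at 7.53 ± 0.876, Psmd9 at 11.1 ± 0.933 and Psmd10 at 25.9 ± 2.89. Their order also turned with median transcript lengths, which put Psmd9 at 39.3 and Psmd10 at 26.3. The tissue-restricted subunits were near the floor, with Psma8, the testis alpha subunit, at 0.0749 ± 0.0919 and Psmb11, the thymus catalytic subunit, at 0.0927 ± 0.0274. Psme2b was at 0.131 ± 0.0997, and its 51 reads over all libraries are uncertain, because 68.7% of its windows of 50 bases (541 of 788) also occur in Psme2.

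**Figure D1:**
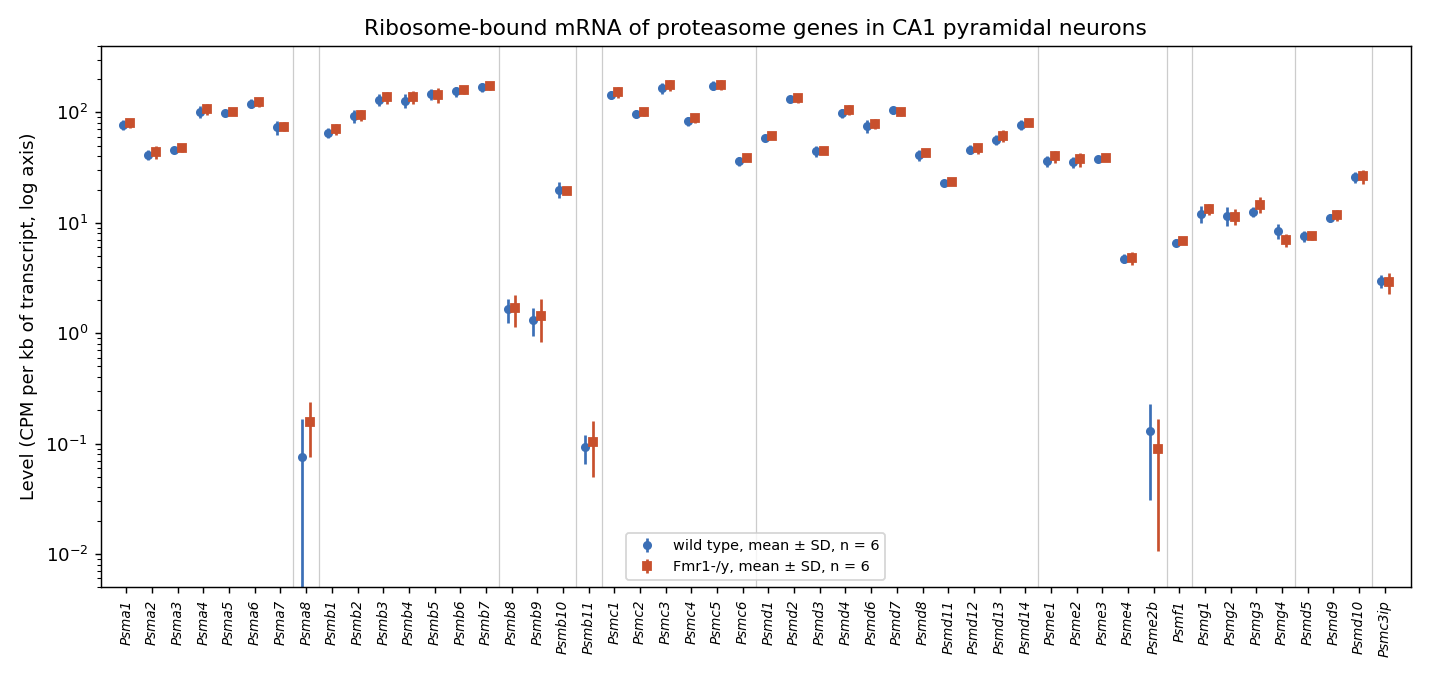
The level of each of the 50 genes per kilobase of its longest transcript is plotted on a log axis, as mean ± SD of 6 WT (circles) and 6 Fmr1-/y (squares) libraries, with vertical lines between roles. The constitutive subunits lie between 22.9 and 174 CPM per kb in WT, and Psma8, Psmb11 and Psme2b lie near 0.1; where an SD reaches 0 its bar leaves the axis.

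The mRNAs of the constitutive catalytic subunits were more abundant than those of their inducible counterparts. The constitutive subunits are Psmb6, Psmb7 and Psmb5, with caspase-like, trypsin-like and chymotrypsin-like activity. The interferon-inducible Psmb9, Psmb10 and Psmb8 replace them in the immunoproteasome, which favours peptides for antigen presentation. In WT, per length, Psmb5 was 89.1 times as high as Psmb8 and Psmb6 was 117 times as high as Psmb9, whereas Psmb7 was 8.45 times as high as Psmb10. The same ratios in Fmr1-/y libraries were 85.5, 112 and 8.99. With median transcript lengths the WT ratios were 54.4, 45.8 and 8.45, so the order of the pairs Psmb5 to Psmb8 and Psmb6 to Psmb9 depends on the length used. Psmb10 therefore made up most of the inducible reads, at 19.97 ± 3.20 CPM per kb in WT against 1.64 ± 0.403 for Psmb8 and 1.32 ± 0.376 for Psmb9. Psmb9 (chr17:34182030-34187330) and Psmb8 (chr17:34198195-34201454) are neighbours in the major histocompatibility complex, and Psmb10 lies apart from them (chr8:105935728-105938392).

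Between the genotypes no catalytic subunit passed the test, and the libraries of the groups overlapped for each of them. From here on levels are CPM of the gene itself, and fold changes are log2 of Fmr1-/y over WT from the quasi-likelihood fit of edgeR, with p-values adjusted over all genes by Benjamini-Hochberg. Psmb5 (Entrez 19173) had a lowest, median and highest library of 117, 126 and 157 CPM in WT and of 97.3, 130 and 150 CPM in Fmr1-/y. The lowest value was that of Fmr1-/y library 4 and the ranges overlapped, with a log2 fold change of -0.03 (SE 0.10, adjusted p = 0.975). Psmb6 ran over 112, 118 and 144 CPM in WT and 111, 130 and 139 CPM in Fmr1-/y (0.05, SE 0.08, adjusted p = 0.936). Psmb7 ran over 177, 191 and 228 CPM in WT and 179, 210 and 216 CPM in Fmr1-/y (0.05, SE 0.07, adjusted p = 0.937). In all 3 genes the ranges of the groups overlapped. Of the inducible subunits, Psmb8 ran over 1.66, 2.69 and 3.32 CPM in WT and 1.68, 2.80 and 3.84 CPM in Fmr1-/y, with a log2 fold change of 0.03 (SE 0.22, adjusted p = 0.989). Psmb9 ran over 0.970, 1.85 and 2.395 CPM in WT and 1.06, 1.84 and 3.06 CPM in Fmr1-/y (0.12, SE 0.28, adjusted p = 0.960). At these levels the precision was low, and the 95% interval of Psmb9 spanned -0.47 to 0.70. Psmb10 ran over 21.6, 24.5 and 32.6 CPM in WT and 23.6, 25.2 and 27.1 CPM in Fmr1-/y (-0.04, SE 0.09, adjusted p = 0.955), with the Fmr1-/y libraries inside the range of WT.

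The inducible share of the summed CPM of the 6 catalytic genes was 5.83% to 6.995% in WT (mean 6.35% ± 0.462, n = 6) and 5.88% to 6.48% in Fmr1-/y (mean 6.17% ± 0.249, n = 6). The Fmr1-/y values thus lay within the WT range. A list of 12 interferon-stimulated genes, which holds none of the 50, summed to 113 to 125 CPM in WT and 117 to 158 CPM in Fmr1-/y. Of these 12, 11 had fold changes above 0 and 3 were at an unadjusted p under 0.05, with none past the adjusted threshold.

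**Figure D2:**
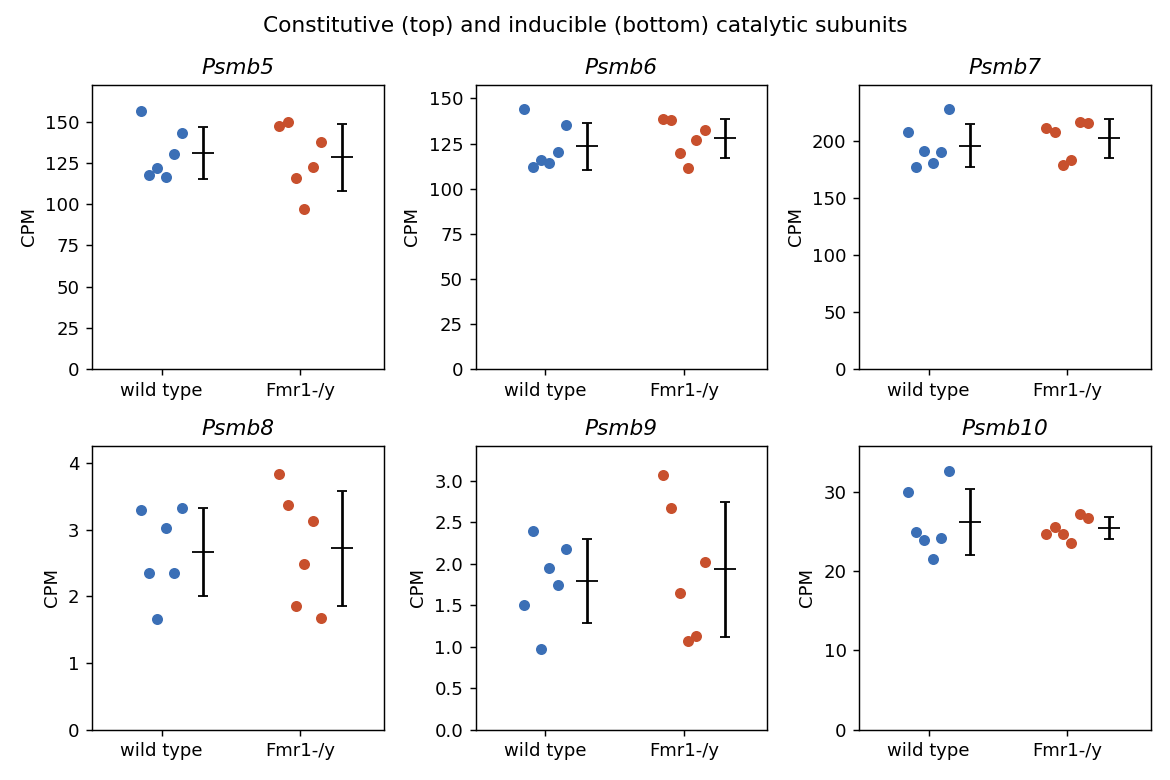
CPM of the constitutive (Psmb5, Psmb6, Psmb7) and inducible (Psmb8, Psmb9, Psmb10) catalytic subunits in each WT and Fmr1-/y library (points), with the mean ± SD of 6 libraries beside them and each axis starting at 0. The groups overlap in all 6 panels, and the inducible subunits Psmb8 and Psmb9 stay under 4 CPM.

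None of the 50 genes passed the test between the genotypes. The count past an adjusted p of 0.05 was 0, against 0.0224% of the 17823 genes tested (4 genes, Fmr1 among them, all lower in Fmr1-/y), and no member was at an unadjusted p under 0.05, against 7.96% of all genes (3.67% lower and 4.29% higher in Fmr1-/y). DESeq2 called no member either, at an adjusted p (0.471% of all genes, 84 genes) or at an unadjusted one (8.46%), though it gave 3 low members no adjusted p. limma voom had 1 of the 50 at an unadjusted p under 0.05 (7.89% of all genes), the testis subunit Psma8. In no member did the libraries of the genotypes separate (0.623% of all genes, 111 genes). In a pulldown from tissue, fewer tagged cells and less of an mRNA on the ribosomes of each cell cannot be told apart. The p-values set the difference between genotypes against the spread between pools of animals.

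For the constitutive particle the intervals around these differences were narrow. The Fmr1-/y mean of the 31 subunits was 97.8% (Psmd7) to 109% (Psmd13) of the WT mean, and the 95% intervals of all 31 held 0. The lowest bound was -0.24 for Psmb5, which corresponds to 84.5% of WT, and the highest was 0.31 for Psmd13, which corresponds to 124% of WT. Within a genotype the coefficient of variation of these genes was 5.40% (Psmd11) to 14.1% (Psmb5), with a median of 9.69%, close to the 9.21% of the 7645 genes with a mean over 20 CPM.

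The fold changes were small and mostly above 0. Of the 50 genes, 42 had a fold change above 0 and 8 below, where 51.4% of all genes tested were above 0. The median over the 50 was 0.047 on the log2 scale, beside 0.0042 over all genes and -0.0056 over genes with more than 20 CPM. The 7 alpha ring genes, the 6 ATPases, 6 of 7 beta ring genes and 10 of 11 non-ATPase subunits had fold changes above 0, with medians of 0.043, 0.076, 0.049 and 0.045. These counts are not those of independent genes, because the subunits moved together over the libraries, as described further on. With the summed level of the cytosolic ribosomal proteins of each library as a covariate, a fit added after the data were seen, 29 members were above 0 and 21 below and the median was 0.010. The median was 0.090 without WT library 6, 0.078 without Fmr1-/y library 3, 0.076 without WT library 1, 0.070 without Fmr1-/y library 4 and 0.028 without WT library 2. Members above 0 fell to 37, with 13 below, without Fmr1-/y library 1 or without Fmr1-/y library 2. They rose to 44, with 6 below, without Fmr1-/y library 4, WT library 1 or WT library 6.

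**Figure D3:**
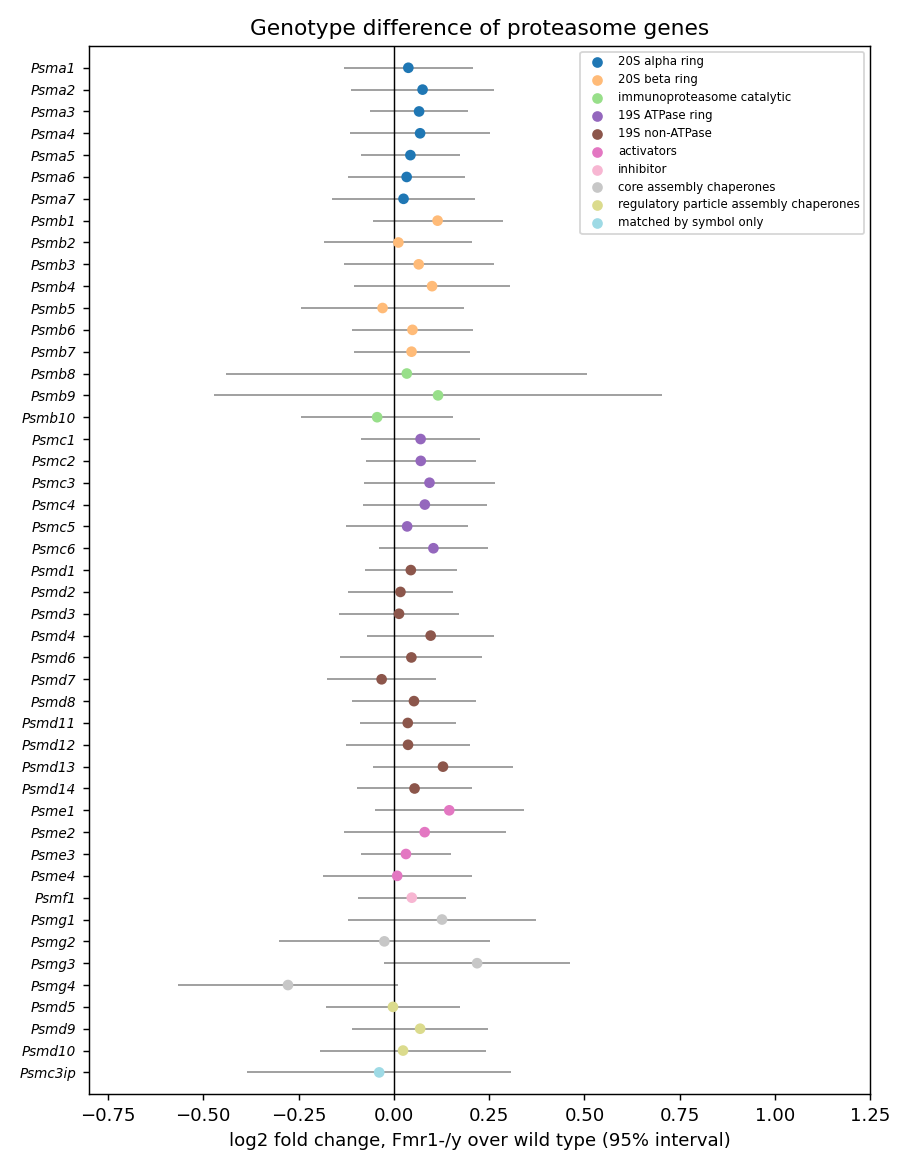
Log2 fold change of Fmr1-/y over WT (points, coloured by role) with its 95% interval (lines) for the 47 members with a mean over 1 CPM. Every interval holds 0, and the widest are those of the low immunoproteasome genes Psmb8 and Psmb9; Psma8, Psmb11 and Psme2b are not drawn.

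The smallest p-values of the 50 genes belonged to Psmg4 and Psmg3, a pair of the 4 core assembly chaperones. Psmg4 (Entrez 69666, chr13:34162964-34178172), which dimerizes with Psmg3, ran over 3.89, 4.78 and 5.84 CPM in WT and 3.25, 3.83 and 4.75 CPM in Fmr1-/y, with a log2 fold change of -0.28 (SE 0.14, adjusted p = 0.642). Its partner Psmg3 (chr5:139823613-139826894) had the opposite sign, with 9.80, 10.9 and 12.8 CPM in WT and 9.69, 12.7 and 16.1 CPM in Fmr1-/y (0.22, SE 0.12, adjusted p = 0.690). Neither passed the test, and the libraries of both overlapped. The other chaperone pair, Psmg1 and Psmg2, had log2 fold changes of 0.13 (SE 0.12) and -0.02 (SE 0.13). Under the covariate named above Psmg4 was at -0.32 (adjusted p = 0.369), the only member of the 50 at an unadjusted p under 0.05 in that fit, where 13 genes of the table passed the adjusted threshold. The share of all genes at that unadjusted p was not counted in that fit. For the chaperones of the regulatory particle the fold changes were -0.0023 (SE 0.08) for Psmd5, 0.07 (SE 0.08) for Psmd9 and 0.02 (SE 0.10) for Psmd10.

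No activator passed the test, nor did the inhibitor. Psme1 ran over 35.7, 38.9 and 46.6 CPM in WT and 35.0, 45.4 and 50.4 CPM in Fmr1-/y, with a log2 fold change of 0.15 (SE 0.09, adjusted p = 0.768). Its ring partner Psme2 was at 34.3 ± 4.00 and 36.2 ± 5.40 CPM (0.08, SE 0.10), Psme3 at 102 ± 5.80 and 104 ± 4.34 CPM (0.03, SE 0.06) and Psme4 at 30.6 ± 2.89 and 30.8 ± 4.12 CPM (0.0089, SE 0.09). Psmf1, which blocks the core, was at 25.2 ± 1.72 CPM in WT and 26.01 ± 0.721 CPM in Fmr1-/y (0.05, SE 0.07). The 95% interval of Psme3 was -0.09 to 0.15, and that of Psme1 reached 0.34.

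Of the subunits of the constitutive particle, the smallest p-values belonged to Psmc6, Psmd13 and Psmb1 above 0. Psmc6, an ATPase, ran over 73.3, 78.2 and 90.4 CPM in WT and 76.8, 88.5 and 90.9 CPM in Fmr1-/y (0.10, SE 0.07, adjusted p = 0.774). Psmd13, a lid subunit, ran over 101, 107 and 129 CPM in WT and 97.9, 129 and 134 CPM in Fmr1-/y (0.13, SE 0.09, adjusted p = 0.785). The structural beta subunit Psmb1 ran over 117, 121 and 146 CPM in WT and 114, 146 and 150 CPM in Fmr1-/y (0.11, SE 0.08, adjusted p = 0.799). In each of these genes the Fmr1-/y median was near the highest WT library, yet the lowest Fmr1-/y library lay below the WT median. Only Psmb5 and Psmd7, a scaffold of the lid, were below 0, and Psmd7 ran over 152, 161 and 181 CPM in WT and 143, 167 and 174 CPM in Fmr1-/y (-0.03, SE 0.07, adjusted p = 0.954). Psmd2, the most abundant member by CPM, was at 393 ± 22.3 CPM in WT and 398 ± 36.3 CPM in Fmr1-/y (0.02, SE 0.07).

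The low members could not be compared with any precision. Psma8 had 3, 0, 5, 0, 16 and 8 reads in WT libraries 1 to 6 and 17, 7, 22, 15, 8 and 10 reads in Fmr1-/y libraries 1 to 6. Its log2 fold change of 1.07 (SE 0.79, adjusted p = 0.817) had a 95% interval of -0.60 to 2.74. Of 4 other genes used in testis or meiosis 3 were tested, and they summed to 1.15 to 2.53 CPM in WT and 1.13 to 3.17 CPM in Fmr1-/y, 2 of them with a fold change above 0. Psmb11 was at 0.394 ± 0.116 CPM in WT and 0.442 ± 0.232 CPM in Fmr1-/y (0.16, SE 0.45), and Psme2b at 0.109 ± 0.0835 and 0.0750 ± 0.0660 CPM (-0.55, SE 0.93). Psmc3ip was at 3.83 ± 0.531 and 3.73 ± 0.802 CPM (-0.04, SE 0.16).

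The 31 constitutive subunits were high or low together from library to library, and the libraries where they were high came from both genotypes. In WT libraries 1 and 6 and in Fmr1-/y library 2 all 31 lay above their own mean over the 12 libraries, and in Fmr1-/y libraries 1, 5 and 6 it was 30, 29 and 30 of them. In WT libraries 2, 3 and 4 and in Fmr1-/y library 3 none of the 31 lay above its mean, with 2 above it in Fmr1-/y library 4 and 6 in WT library 5. The median deviation of the 31 from their means ran from -0.15 in WT library 2 to 0.16 in Fmr1-/y library 2 on the log2 scale. Across the 465 pairs of subunits the median Pearson correlation over the 12 libraries was 0.86, all pairs were positive, and with each genotype centred on its own mean the median was 0.87. These correlations describe 12 shared libraries and are given without a test.

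**Figure D4:**
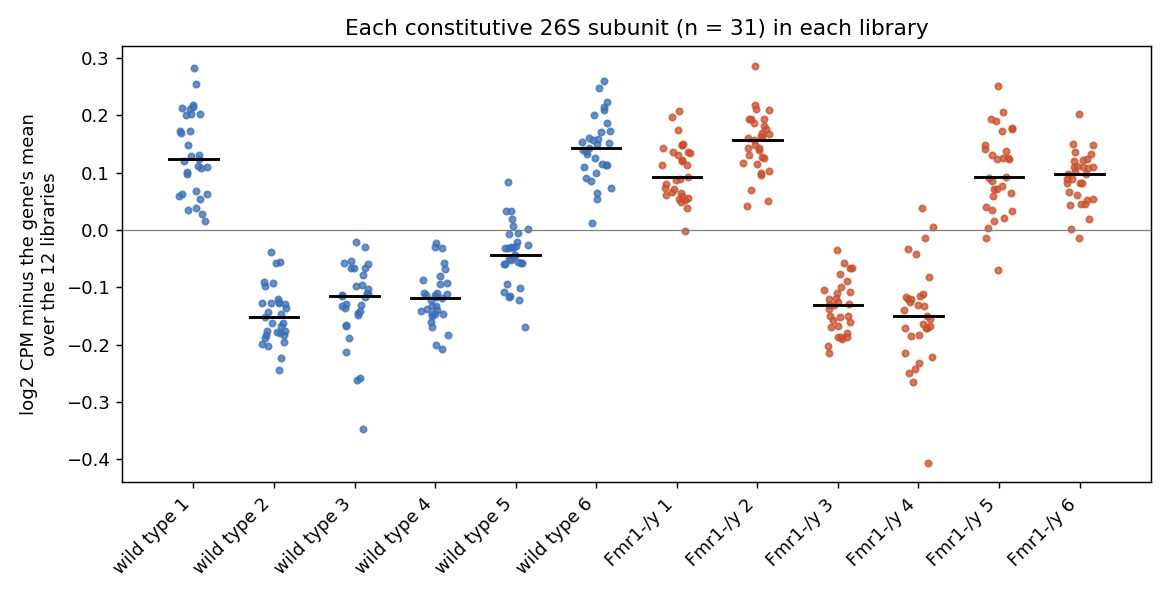
Each point is 1 of the 31 constitutive 26S subunits in 1 library, as log2 CPM minus the mean of that gene over the 12 libraries, and the black line is the median of the library. WT libraries 1 and 6 and Fmr1-/y libraries 1, 2, 5 and 6 lie above 0, and the other 6 libraries lie below.

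Summed over the 50 genes the level was 4446 to 5379 CPM in WT (median 4665, mean 4828 ± 420, n = 6) and 4449 to 5416 CPM in Fmr1-/y (median 5225, mean 5009 ± 437, n = 6). Both groups spanned the same range. Other families followed the same libraries. The 98 cytosolic ribosomal protein genes ran from 87.8% of their 12-library mean in WT library 2 to 110% in Fmr1-/y library 2, the 77 mitochondrial ribosomal protein genes from 88.3% to 112%, and the 82 nuclear genes of the respiratory chain from 88.7% to 112%, where the proteasome genes ran from 90.4% to 110%. Ribosomal protein mRNAs summed to 11449 ± 1041 CPM in WT and 11829 ± 929 CPM in Fmr1-/y.

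**Figure D5:**
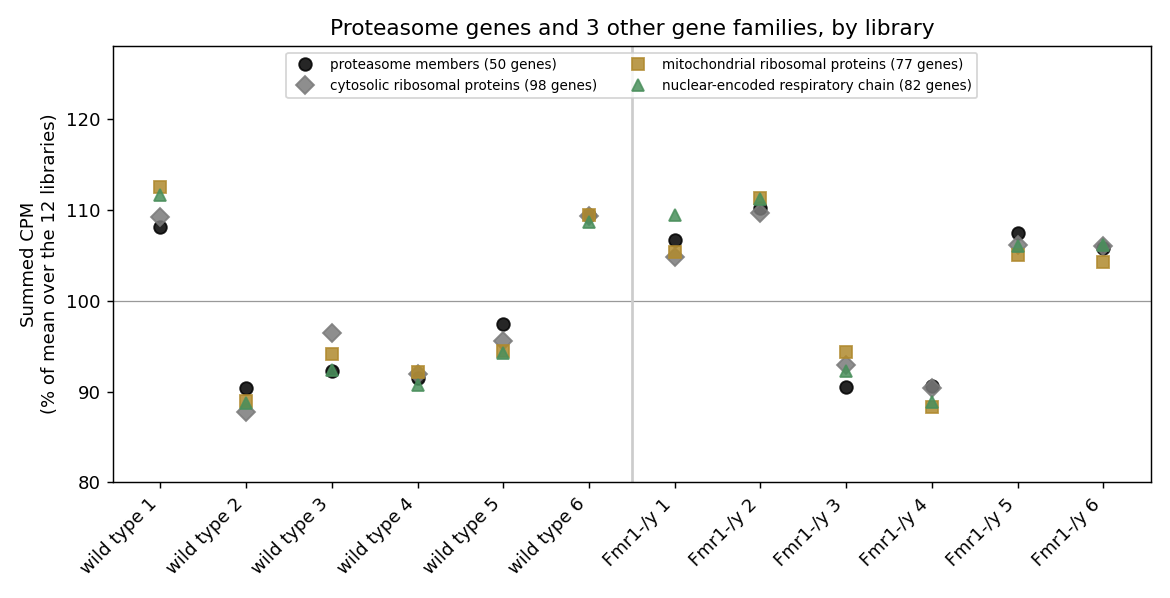
Summed CPM of the 50 proteasome genes and of 3 other gene families in each library, as a percent of the mean over the 12 libraries; the axis starts at 80%. In every library the 4 families lie on the same side of 100%, with the proteasome genes between 90.4% and 110%.

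Transcript length moved with the same libraries. The longest transcripts of the 50 genes had a median of 1490.5 bases, beside 3029.5 bases over the tested genes with a length. Among genes with a mean over 20 CPM, split by length into 4 sets of near-equal size, the 1891 shortest (371 to 2352 bases) had a median deviation of 0.05 to 0.12 on the log2 scale in the 6 libraries where the proteasome genes were high, and of -0.13 to -0.06 in the other 6. The 1890 longest (5192 bases and more) had the opposite sign in 11 of the 12 libraries, and in Fmr1-/y library 6 both sets were above 0. The part of transcript length in the proteasome values was not tested. The assignment of libraries to sequencing lanes is not given in the sources used here.

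The genes that work with the proteasome did not pass the test either. Of 36 listed symbols of ubiquitin supply, substrate delivery, deubiquitination, assembly and transcriptional control, 31 were in the table and all were tested. None passed the adjusted threshold, and 1 of the 31 was at an unadjusted p under 0.05, against 7.96% of all genes. Of the 31, 17 had fold changes above 0 and 14 below, where 51.4% of all genes were above 0, and the median was 0.019. The 1 at an unadjusted p under 0.05 was Fbxo7, an F-box protein that binds the inhibitor Psmf1, with 17.0 ± 1.74 CPM in WT and 19.4 ± 1.46 CPM in Fmr1-/y (0.19, SE 0.09, adjusted p = 0.612). Hspb1, a small heat shock protein, had 0.32 (SE 0.18, adjusted p = 0.705), and Adrm1, a ubiquitin receptor of the regulatory particle, had 0.11 (SE 0.08). Below 0 were Ube3c, a ubiquitin ligase that acts on the proteasome (-0.08, SE 0.05), Ddi2, the protease that activates NRF1 (-0.26, SE 0.17), and Uba1, the main ubiquitin-activating enzyme (-0.08, SE 0.06). Among these partners Nfe2l1, which encodes NRF1 and was chosen after its values were seen, was at 444 ± 14.1 CPM in WT and 438 ± 25.5 CPM in Fmr1-/y (-0.02, SE 0.05).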

How the data were processed

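Per the labels and the methods of the study, the authors aligned stranded 50-cycle single-end reads with TopHat2 2.1.1 (Bowtie2 2.2.8) to mm10 and counted them per gene on the opposite strand with HTSeq 0.6.1p1; the deposited values are these raw counts, read here without change. Of 24079 genes, 17823 reached 15 reads in total and were tested in R 4.3.3 with edgeR 4.0.16 (TMM, quasi-likelihood, no covariate) and Benjamini-Hochberg adjustment at 0.05, after a test on simulated data. SE is the fold change divided by the square root of F. CPM are TMM-scaled counts, and log2 CPM used a prior count of 2. DESeq2 1.42.0, limma 3.58.1 voom, other filters and scalings, a replicate block and leaving out each library were alternatives. Lengths came from GENCODE M21 coding transcripts (93.2% of tested genes) and positions from RefSeq GRCm38.p6. The members and lists were chosen with earlier results of these data known. Named were members with the 5 smallest p-values in each direction, catalytic subunits, activators, inhibitor, chaperones, the highest and lowest of each ring, and of the partners the 3 smallest p-values in each direction; others named were chosen after their values were seen. Protein sequences were not used here.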

Additional observations from a re-analysis of the deposited data

Results flagged for a closer look

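Among the 50 genes in both genotypes (100 groups of 6 libraries), 1 had a library far from the others. Psmc6 was at 76.8 CPM in Fmr1-/y library 3, where the other 5 Fmr1-/y libraries lay between 85.8 and 90.9 CPM, so that its gap to the nearest made up 0.635 of the range of the group, above Dixon's 95% critical value for 6 samples. Chance gives about 5 such cases in 100 groups. In that library all 31 constitutive subunits were below their means.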

How the results depend on the processing

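No proteasome gene and no partner gene passed the adjusted threshold in any fit run. At an unadjusted p under 0.05, where the reported fit had none, lower members numbered 0 to 1 when a library was left out (Psmg4 without Fmr1-/y library 5, WT library 3 or WT library 4) and 1 with the ribosomal protein covariate (Psmg4), and higher members 0 to 3 when a library was left out (3 without Fmr1-/y library 4, and 1 each without Fmr1-/y library 3, WT library 5 and WT library 6), 2 without scaling and 1 with voom. The share of all genes at that unadjusted p was 7.96% in the reported fit and 7.89% with voom. It was not counted for the fits without a library, without scaling or with the covariate, so those member counts are not read as an excess. At the adjusted threshold, 84 genes of the whole table passed with DESeq2, 82 with its fold change prior, 1 with at least 10 reads in every library, 13 with the covariate and 2 to 6 when a library was left out. Shared replicate numbers did not pair the libraries (mean correlation of deviations 0.025 over all genes, 0.099 over genes above 1 log2 CPM and 0.155, with pairs from -0.44 to 0.60, over genes above 5; 0 of 12 libraries correlated best with their own number), and with the replicate block 0 members and 4 genes passed, with 43 members above 0 and 7 below. Of 642 fits of 28 named members, 42 changed sign, all close to 0, as did none of 138 for the 6 partners. With the covariate the signs turned for Psmb7 (-0.00041), Psmb8 (-0.049), Psmd10 (-0.039), Psma6 (-0.013), Psmc5 (-0.019) and Psmd2 (-0.020). Without scaling, where the median of all genes was 0.028, they turned for Psmd5 (0.023) and Psmg2 (0.00157), and Psmd5 also turned with voom (0.000419) and the replicate block (0.0018). Leaving out libraries turned signs within these ranges: Psmd7 -0.055 to 0.00046, Psmb10 -0.094 to 0.028, Psmb5 -0.078 to 0.039, Psmb8 -0.088 to 0.14, Psmb9 -0.065 to 0.24, Psmd10 -0.015 to 0.094, Psmd5 -0.0373 to 0.043, Psme4 -0.0398 to 0.056, Psmg2 -0.087 to 0.065, Psma6 -0.00132 to 0.067, Psmd2 -0.012 to 0.051. The highest level per length was 596 CPM per kb with median transcript lengths, and the motif count 24 with the shorter core and 14 with RTGASNNNGC. The 596 CPM per kb is that of Psmd2, whose CPM were divided by its median length of 659 bases in place of 2961. The motif counts differ because the motifs take different letters. For the other changes the cause was not tested. The shorter core holds every match of TGACNNNGC, so its count cannot be the lower one. RTGASNNNGC is not simply a wider motif, since Psmc6 held TGACNNNGC but not RTGASNNNGC. Depth limits Psma8, Psmb11 and Psme2b, which stayed under 1 CPM, and 6 pools a genotype limit the rest.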
